A study of Apis mellifera ligustica with 12 samples.

Results

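The miRNAs described here are the known honeybee miRNAs that carry a 4-digit number beginning with 37 or 60, with any letter or arm suffix. The rule reads names alone, although it was set with earlier results of these data known. Of the 1350 listed miRNAs, 63 members met the rule, 23 of them numbered 37xx and 40 numbered 60xx. They make up 63 of the 180 known honeybee miRNAs in the tables. Of the remaining honeybee miRNAs, 73 have a number under 1000 or none and 44 have another number of 1000 or above, and both lists are used for comparison.

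Small RNA was sequenced from the brains of Apis mellifera ligustica foragers in 12 libraries, 3 for each of 4 groups, and the brains of 20 workers of 1 colony were pooled for each library. The groups were untreated bees (CK) and bees taken on day 10 (D10), day 20 (D20) and day 30 (D30) of exposure to fluvalinate. Fluvalinate, a pyrethroid acaricide used against Varroa mites, was placed in the treated hives on strips holding 40 mg each, 1 new strip per 7 days. CK was taken to be the bees sampled before the first strip, so in any comparison with CK the treatment and the date of sampling cannot be told apart. Between treated groups, the length of exposure and the date of sampling cannot be told apart either. Whether CK bees came from the untreated colonies is not stated by the study. Equal replicate numbers are not said to be the same colony.

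A miRNA is cut from a hairpin transcript, and either the 5′ arm (5p) or the 3′ arm (3p) can become the mature strand that guides silencing of messenger RNAs. Bases 2 to 8 of the mature strand, the seed, pair with the target. Numbers in the miRBase database follow the order of registration, so low numbers mostly belong to families shared across insects or animals, while these blocks were largely filled by sequencing of honeybee small RNA. For most of these entries no function is established.

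The mature sequences of the members that the results turn on are printed 5′ to 3′ as the deposited tables give them, in DNA letters, with the seed in capitals. The first set holds the 7 most abundant members, which took most of the counts.
ame-miR-3785-3p: tACCCTGTaacgtcctgagact
ame-miR-6037-3p: tAAGCTCTgtgtactttttac
ame-miR-3718a-3p: tCCCCTGTcctgtcccgatag
ame-miR-3719-3p: tACGGATTgcgtgacttttcga
ame-miR-3786-3p: tCTGTATGgctcaggacgatac
ame-miR-6039-5p: aATCGAACgcgtgagtttacgt
ame-miR-3786-5p: cTTGTCCTggttcatgtagggcg

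The second set holds 3 members whose levels by group are described in full, with a miRNA of related seed after 2 of them.
ame-miR-6060-5p: aCGGGTACgacgttggcaacgt
ame-miR-6041-3p: aAATATCAtcgagatcgaagga
ame-miR-283-5p: aAATATCAgctggtaattct
ame-miR-6040-3p: tAGTACGGgcagtactggga
ame-miR-6000a-3p: tAGTACGAgaagtacccaca

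All 63 seeds were distinct from each other. Ame-miR-6041-3p had the seed AATATCA of ame-miR-283-5p, a miRNA of the insect miR-12 cluster, and ame-miR-3718b-5p had the seed CGGGACA of ame-miR-9877-3p. With the shorter seed of bases 2 to 7, ame-miR-6040-3p and ame-miR-6000a-3p shared AGTACG, ame-miR-6037-3p shared AAGCTC with ame-miR-993-3p, and ame-miR-6042-3p shared AGGAAC with ame-miR-276-3p, an abundant insect brain miRNA. The members were 20 to 24 bases long, 36 of them with 22 bases, and their median GC content was 50.0%, against 45.0% for honeybee miRNAs numbered under 1000 and 52.3% for the other list. A first base of T, the base that Argonaute proteins favour as U, was present in 42.9% of the members, against 65.8% and 59.1% in the other lists. The 2 blocks differed in this, with T first in 56.5% of the 37xx members and 35.0% of the 60xx members, of which 47.5% began with A.

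In 3 places, members with overlapping hairpins were reverse complements of each other over 18 or more bases. Ame-miR-6047a-5p and ame-miR-6047b-3p were exact reverse complements over 22 of 22 bases, and their hairpins overlapped on linkage group 3 (bases 301751 to 301825 and 301753 to 301825 of Amel_HAv3.1).
ame-miR-6047a-5p: aGTGGACTgactggcctgtgct
ame-miR-6047b-3p: aGCACAGGccagtcagtccact

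These 2 members had 394 and 2135 counts over the 12 libraries. Ame-miR-6000a-5p (24 counts) and ame-miR-6000b-3p (383 counts) were complementary over 21 bases on linkage group 11, and ame-miR-3718a-3p (233680 counts) and ame-miR-3718b-5p (2 counts) over 18 bases on linkage group 3. Among the other honeybee entries the only such pair was ame-miR-2-3p and ame-miR-2b-5p. The gene table used gives no strand for these hairpins, so whether the members of a pair come from opposite strands was not tested.

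A further sequence feature was the run TTTTCAG, read on the printed strand only. It was present in 3 of the 63 members (4.76%) and in 0 of the 73 and 0 of the 44 other honeybee miRNAs, and it was picked after the sequences were seen. The members that hold it are printed for this run, which lies after the seed.
ame-miR-3743-3p: tCGTGACTttcttttcagcccct
ame-miR-3747a-5p: cGAGGCTTtttttcagcgatga
ame-miR-3747b-5p: tGCGAGATttcttttcagtcgtg

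The hairpins of ame-miR-3747a-5p and ame-miR-3747b-5p lay 544 bases apart within LOC412161, and that of ame-miR-3743-3p lay within LOC408960. Many animal introns end in a run of pyrimidines followed by AG. The table gives gene spans without exons, so the place of these hairpins relative to introns was not examined.

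By name, 61 of the 63 members matched 56 hairpin genes in the RefSeq table of Amel_HAv3.1, the build used for the deposited data. Of the 56 hairpins, 36 (64.3%) overlapped the span of a protein-coding gene, against 59.7% for honeybee miRNAs numbered under 1000 and 65.9% for the other list. The hosts included GluCl, a glutamate-gated chloride channel, around Mir3786, Br-c, the ecdysone-response gene broad, around Mir3782, and Vhdl, a very high density lipoprotein of the haemolymph, around Mir6001. The authors removed reads that mapped to exons and introns before they counted miRNAs. The median level was 2.69 CPM (counts scaled to a library total of 1000000 on all listed miRNAs) for the 40 members with a hairpin in such a span and 2.61 CPM for the 21 outside one, and the part of that step in these levels was not tested.

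Within 10000 bases of another miRNA gene lay 15 of the 56 hairpins (26.8%), against 41.8% for miRNAs numbered under 1000 and 17.1% for the other list. Mir3718a, Mir3718b and Mir3718c lay together in LOC410936 on linkage group 3, with Mir3718a at bases 7762776 to 7762915. Mir6040 (linkage group 11, bases 13616370 to 13616448) lay 494 bases from Mir6000a in LOC725462. Some stood beside well-known insect miRNA genes, since Mir3730 lay 505 bases from Mir277, Mir6057 lay 292 bases from Mir252b and Mir6038 lay 5923 bases from Mir210.

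Detection of the members varied little among the groups. Of the 63 members, 61 had at least 1 count in some library, and 46 (73.0%) were counted in all 12, against 69 of 73 and 30 of 44 in the other honeybee lists. A library held between 53 and 57 of the 63. All 3 libraries of a group counted 51 members in CK, 52 on day 10, 50 on day 20 and 54 on day 30, at a total depth of 36161865 counts in CK, 37322786 on day 10, 35528528 on day 20 and 44578555 on day 30.

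The members missing in some libraries were rare ones. Ame-miR-3747a-5p and ame-miR-6062-3p had 0 counts in all 12 libraries. For scale, 3 counts are 0.188 CPM in the deepest library and 0.355 CPM in the shallowest. Tags read once were dropped by the authors, so 0 counts can hide a single read, and the level that counting error allows lies above these values. Ame-miR-3756-5p had 4 counts, in D10-1 and D10-2. Ame-miR-6052-5p had 2 counts, in CK-2, and ame-miR-3718b-5p had 2 counts, in D30-2. These 5 members were below the 10 counts required for testing, and the other 58 were tested.

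Of series-wide facts, the counts on listed miRNAs were between 8454313 (CK-1) and 15979901 (D30-3) per library. D30-3 stood apart in that it counted 479 miRNAs known from other species, against 180 to 269 in the other libraries, while it held 57 members, against 53 to 57. The share of high-quality reads was higher in 7 libraries and lower in 5 (CK-2, CK-3, D10-1, D30-1 and D30-2), so that no D20 library was of the lower kind. The neuronal ame-miR-124-3p was present at 14068 to 33881 CPM and ame-miR-137-3p at 3537 to 6105 CPM. The muscle miRNAs ame-miR-1-3p and ame-miR-133-3p summed to between 3216 and 5479 CPM, with means of 4564 CPM in CK, 3936 CPM on day 10, 3551 CPM on day 20 and 4179 CPM on day 30. The 2 had different orders of group means, with 2028, 1598, 1156 and 1135 CPM from CK to D30 for ame-miR-1-3p and 2536, 2338, 2395 and 3044 CPM for ame-miR-133-3p, and their part in the results was not tested. With 3 libraries in a group, no exact permutation test of 2 groups can give a p below 0.1, so differences were tested in a fit across all miRNAs.

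The members took a small and stable share of the miRNA counts. Their summed share was 1.15% ± 0.0507 (SD, n = 3) in CK, 1.13% ± 0.0585 on day 10, 1.13% ± 0.0209 on day 20 and 1.13% ± 0.0498 on day 30. The means of any 2 groups differed by less than the SD of either, and the libraries of all groups overlapped. The lowest library was D30-1 at 1.073% (Wilson 95% interval 1.067% to 1.078%) and the highest CK-1 at 1.204% (1.196% to 1.211%), so that libraries differed by more than counting error. Reads were not tagged with molecular identifiers and are not independent molecules, so the intervals hold counting error alone.

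The 2 blocks shared these counts unequally. The 23 members numbered 37xx took 0.798% ± 0.0772 (SD, n = 3) in CK, 0.825% ± 0.0478 on day 10, 0.804% ± 0.0516 on day 20 and 0.786% ± 0.0327 on day 30. The 40 members numbered 60xx took 0.355% ± 0.0355 in CK, 0.307% ± 0.0266 on day 10, 0.328% ± 0.0331 on day 20 and 0.341% ± 0.0222 on day 30. The highest 60xx shares of D10 (0.335%) and CK (0.392%) and the lowest of D10 (0.282%) and CK (0.322%) show that these groups overlapped.

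**Figure D1:**
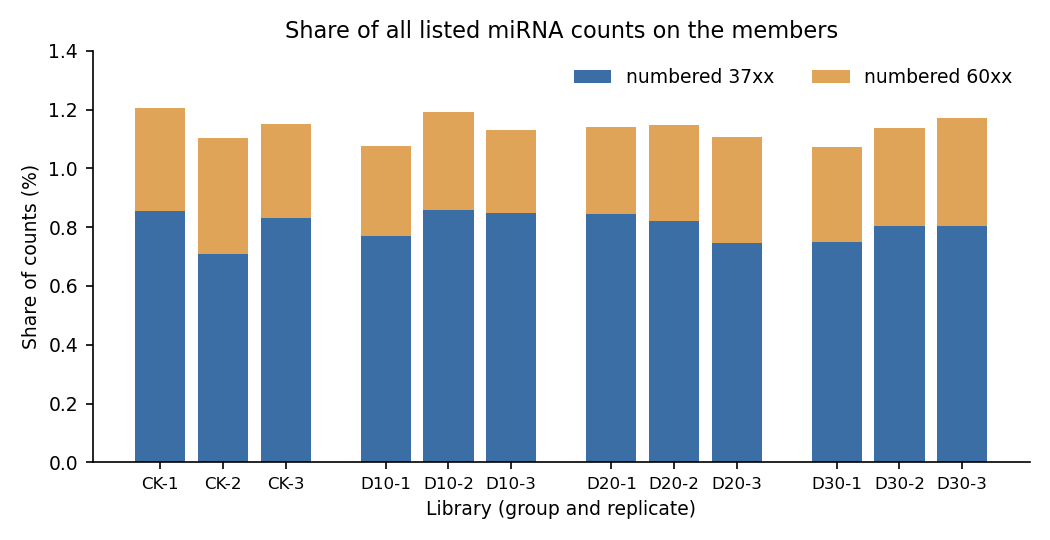
Share of the counts on all listed miRNAs, in percent, that fell on the 63 members in each of the 12 libraries. Blue bars are the 23 members numbered 37xx and ochre bars on top of them the 40 numbered 60xx; the full height lies between 1.07% (D30-1) and 1.20% (CK-1), and blue exceeds ochre in every library.

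Levels differed widely between members. Over the 12 libraries, 5 members had a mean of at least 1000 CPM, 5 had 100 to 1000, 12 had 10 to 100, 20 had 1 to 10 and 21 had under 1 CPM. The median of the mean levels was 2.61 CPM, against 1183 CPM for honeybee miRNAs numbered under 1000 and 1.64 CPM for the other list. The 7 most abundant members took 92.7% of the 1742053 counts on members, and ame-miR-3785-3p alone took 31.6%.

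Ame-miR-3785-3p was the leading member in 12 of 12 libraries, although it ranked only 22nd among the honeybee miRNAs and 23rd among all listed ones. Its level in the libraries was 4019, 3318 and 3746 CPM in CK, 3755, 3244 and 4011 on day 10, 3714, 3877 and 3264 on day 20, and 2465, 3784 and 4009 on day 30. D30-1 was the low library, and the groups overlapped. Ame-miR-6037-3p followed with 2096, 2511 and 1969 CPM in CK, 1956, 2197 and 1715 on day 10, 1623, 1811 and 2156 on day 20, and 1791, 1939 and 2199 on day 30. Its highest library was CK-2 and its lowest D20-1.

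The next 2 members changed places between libraries. Ame-miR-3718a-3p had 1485 ± 256 CPM (SD, n = 3) in CK, 1458 ± 346 on day 10, 1510 ± 324 on day 20 and 1677 ± 438 on day 30, with its highest value, 2177 CPM, in D30-1. Ame-miR-3719-3p had 2376 CPM in D10-2, against 898 to 1272 CPM in the other 11 libraries. Without D10-2, the D10 values of ame-miR-3719-3p were 1095 and 1138 CPM, against 1109, 898 and 1241 CPM in CK.

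Mir3786 was the one hairpin of which both arms stood among the 7 leading members. The 3p arm had 1035 ± 22.5 CPM (SD, n = 3) in CK, 895 ± 90.9 on day 10, 1005 ± 22.6 on day 20 and 1115 ± 161 on day 30 (ame-miR-3786-3p). The 5p arm had 397 ± 17.1 CPM in CK, 423 ± 125 on day 10, 412 ± 36.2 on day 20 and 398 ± 24.7 on day 30 (ame-miR-3786-5p), and it ranked seventh among the members in each library. The ratio of 3p to 5p counts was 2.49 over all libraries and lay between 1.75 (D10-2) and 3.45 (D30-1). Its mean was 2.61 ± 0.158 in CK, 2.19 ± 0.386 on day 10, 2.45 ± 0.242 on day 20 and 2.83 ± 0.582 on day 30, so that the spread within D30 was larger than the distance between any 2 group means but that of D30 and D10.

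Of the other hairpins with 2 counted arms, Mir6000a was rare and nearly even, with 26 counts on ame-miR-6000a-3p and 24 on ame-miR-6000a-5p. Mir6047a, Mir6005 and Mir6001 were more one-sided than Mir3786. Mir6001 had 402 counts on the 3p arm and 15 on the 5p arm. The 3p arm of Mir6047a had 14.5 times the counts of its 5p arm. In Mir6005 the 5p arm had 5.92 times the counts of the 3p arm, with ratios from 2.87 (D10-2) to 13.8 (D30-1). Both extremes of Mir6005 fell in the same libraries as those of Mir3786.

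The members below the leading 7 were of moderate level and close in rank. Ame-miR-6012-3p had a mean of 156 CPM, ame-miR-3791-3p 144 CPM and ame-miR-6043-3p 119 CPM. Ame-miR-6043-3p had 121, 120 and 119 CPM in D10, against 122, 91.9 and 123 CPM in CK. For members of at least 10 CPM, the median coefficient of variation within groups was 15.5%, against 17.3% for honeybee miRNAs numbered under 1000 and 16.0% for the other list.

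**Figure D2:**
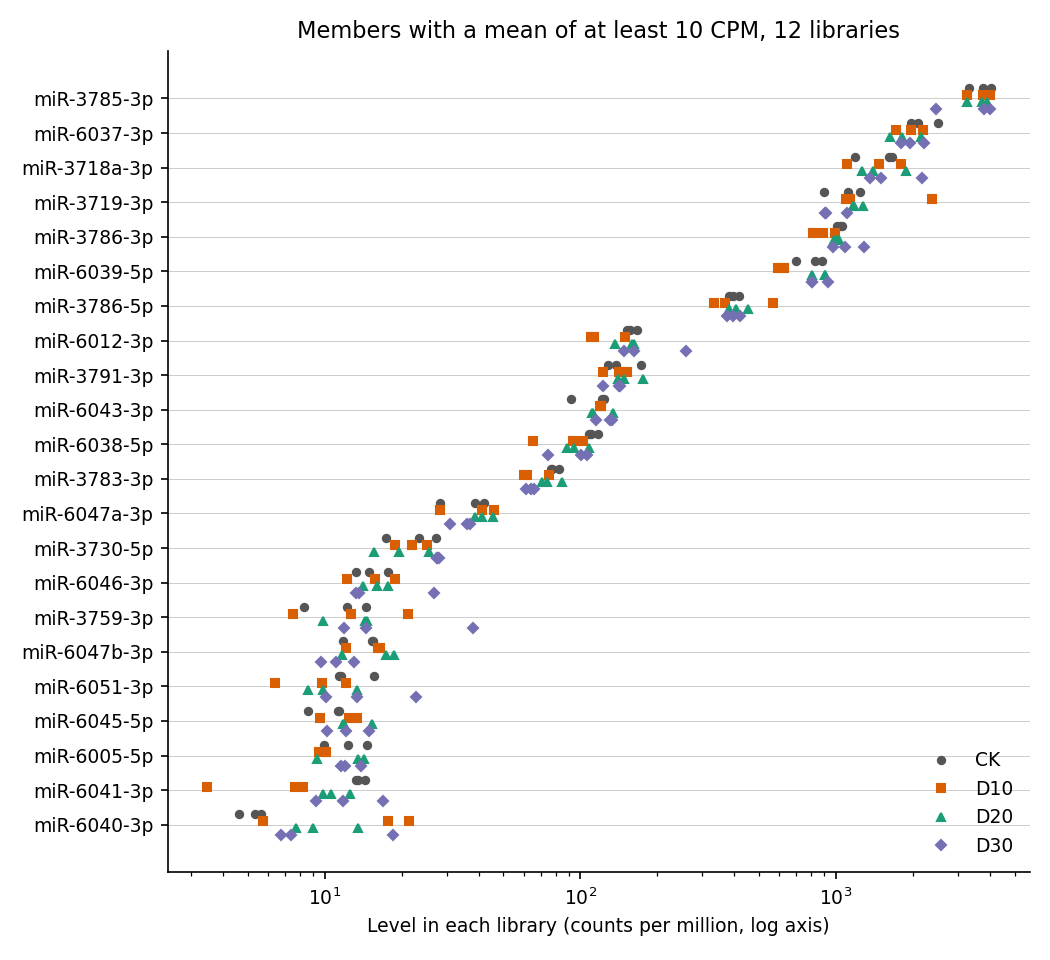
Level of the 22 members with a mean of at least 10 CPM in the 12 libraries, in CPM on a log axis, with 1 point per library and CK, D10, D20 and D30 drawn from top to bottom within each row. Single points stand out in D10-2 (ame-miR-3719-3p at 2376 CPM) and in D30-1 (ame-miR-3759-3p at 37.9 CPM), and the groups otherwise overlap in most rows.

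Some deviations came from 1 library across several members. D30-1 was the highest library for 8 of the 25 members with at least 1000 counts, more often than any other library. It was the lowest for 2 of them. Of the 65 honeybee miRNAs numbered under 1000 with as many counts, D30-1 was highest for 12 and lowest for 12. It held 37.9 CPM of ame-miR-3759-3p, against 7.49 to 21.2 CPM elsewhere, and 259 CPM of ame-miR-6012-3p, against 110 to 167 CPM. Ame-miR-6051-3p (22.7 CPM) and ame-miR-6046-3p (26.9 CPM) were also highest in D30-1, against 6.39 to 15.6 CPM and 12.2 to 18.9 CPM elsewhere. D30-1 was among the 5 libraries of lower read quality, and the part of this in its values was not tested.

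The comparison between groups asks whether the members changed after fluvalinate treatment began. It used edgeR's quasi-likelihood test on the counts, with all 12 libraries in 1 fit and p-values adjusted by Benjamini-Hochberg over all 787 miRNAs with at least 10 counts. A call required an adjusted p under 0.05 and a log2 fold change beyond 1. In each of the 6 comparisons and over the 4 groups together, 0 of the 58 tested members were called, as were 0 of the 787 miRNAs (0%), so the members' count cannot be read apart from that of the whole table. The paper, with edgeR and the same thresholds, reported differentially expressed miRNAs and measured some of them by qRT-PCR. By its account, the qRT-PCR matched the sequencing for all but 1 of those measured. The 0 calls are thus the outcome of this fit. Some alternatives called single members, which are named beside their values. For D10 against CK, DESeq2 called 6 of all 787 miRNAs (0.762%) and edgeR's classic exact test 8 (1.02%), without a member among them. DESeq2 called 1 member for D20 against D10, beside 5 of all 787 miRNAs (0.635%), and 3 over the 4 groups, beside 27 (3.43%). EdgeR's classic exact test called 1 member for D20 against D10, beside 8 of all miRNAs (1.02%), and 1 for D20 against CK, beside 6 (0.762%). Without D30-3, edgeR's quasi-likelihood test called 1 for D20 against D10, beside 11 (1.40%), and 1 over the 4 groups, beside 14 (1.78%).

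At an unadjusted p under 0.05, the same test counted 5 members for D10 against CK (8.62% of the members, beside 6.10% of all miRNAs tested). It counted 1 for D20 against CK (1.72%, beside 4.07%) and 1 for D30 against CK (1.72%, beside 6.86%). That member was ame-miR-6001-5p in both, and it is also among the 5 for D10 against CK. It was counted only in CK, so it passed the count filter through that group alone. Between treated groups the test counted 3 for D20 against D10 (5.17%, beside 6.10%), 8 for D30 against D10 (13.8%, beside 11.2%) and 4 for D30 against D20 (6.90%, beside 7.62%). Over the 4 groups together it counted 4, ame-miR-6001-5p, ame-miR-6039-5p, ame-miR-6041-3p and ame-miR-6060-5p (6.90%, beside 9.78%). Each share was within a few members of that of all miRNAs.

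Members whose libraries did not overlap between 2 groups were also counted, after TMM scaling (edgeR's scaling of library sizes). They were 5 of 58 for D10 against CK (8.62%, beside 9.15% of all tested miRNAs), 8 for D20 against CK (13.8%, beside 12.2%) and 8 for D30 against CK (13.8%, beside 10.5%). Each of these counts against CK includes ame-miR-6001-5p, which was counted only in CK. The members without overlap were 6 for D20 against D10 (10.3%, beside 10.9%), 13 for D30 against D10 (22.4%, beside 11.1%) and 9 for D30 against D20 (15.5%, beside 9.78%). The widest gap to all miRNAs was that of D30 against D10. An entry missing from a library in each of the groups compared cannot separate them. The tested miRNAs hold many rare entries, and 631 remained when non-members counted almost only in 1 library were omitted. The share of all miRNAs is therefore not a like background for the members. The comparisons share libraries and are not independent of each other.

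The median log2 fold change of the 58 members was 0.08, 0.14 and 0.11 when D10, D20 and D30 were set against CK, beside medians over all 787 miRNAs of 0.00, 0.00 and 0.25. Above 0 were 33, 38 and 37 of the 58 members in the same comparisons (56.9%, 65.5% and 63.8%), beside 40.7%, 43.5% and 67.0% of all miRNAs. Of all miRNAs, 127, 136 and 3 had 0 counts in both groups compared and so no difference, and among the members there were 0 of these. For D30 against D10 and D30 against D20, the medians were 0.05 and 0.01 for the members, beside 0.27 and 0.25 for all miRNAs. D30-3, with its many entries known from other species, is among the D30 libraries in these values.

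**Figure D3:**
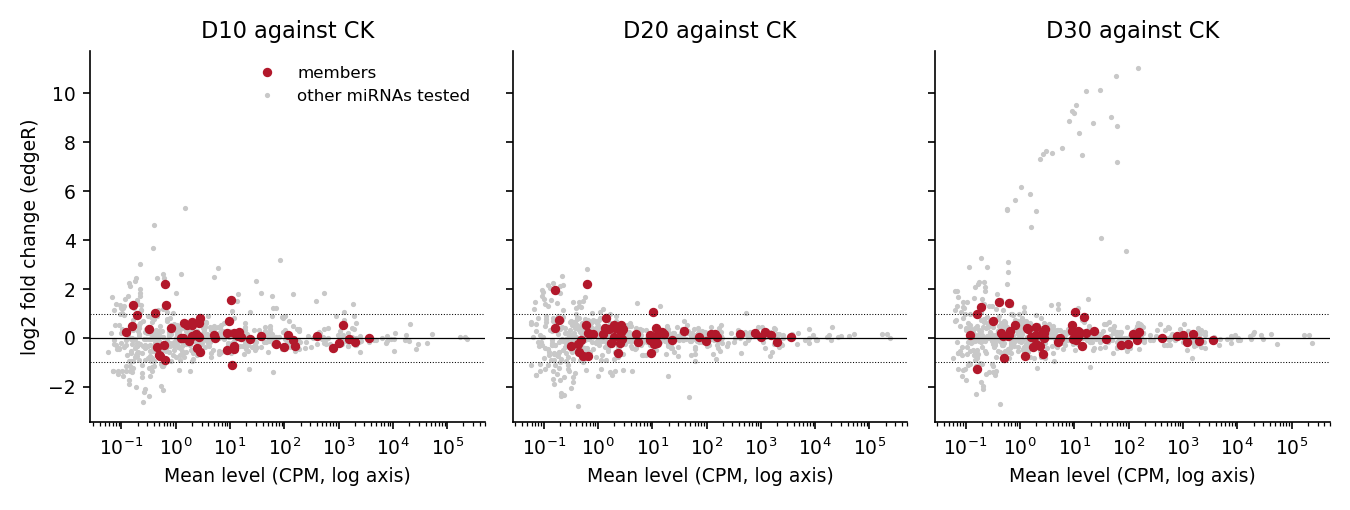
Log2 fold change of D10, D20 and D30 against CK from edgeR (y axis) over the mean level in CPM (x axis, log scale), for miRNAs counted in both groups, with members in red, other tested miRNAs in grey and dotted lines at a log2 fold change of -1 and 1. Of the 22 members with at least 10 CPM, 2 lie beyond the lines for D10, 1 for D20 and 1 for D30. Of the other miRNAs with at least 10 CPM, 17 of 181 lie beyond them for D10, 4 of 179 for D20 and 16 of 181 for D30. No point passed the adjusted test.

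The member with the smallest p-value between treated groups was ame-miR-6060-5p, whose hairpin lies outside any protein-coding span (linkage group 2, bases 14063559 to 14063629). Its level was 9.11, 9.73 and 8.61 CPM in CK, 10.5, 18.6 and 15.2 on day 10, 5.71, 4.69 and 6.64 on day 20, and 11.1, 10.3 and 5.57 on day 30. Every D10 library was above every CK library and every D20 library below, while the D30 libraries overlapped each of the other groups. The log2 fold change of ame-miR-6060-5p in D20 against D10 was -1.30 (standard error 0.30, unadjusted p = 0.00149, adjusted p = 0.471, edgeR's quasi-likelihood test).

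That difference in ame-miR-6060-5p passed under 3 alternatives. The adjusted p was 0.00100 with DESeq2, 0.00602 with edgeR's classic exact test and 0.0104 with edgeR's quasi-likelihood test without D30-3, and over all alternatives that left out 1 library it lay between 0.0104 and 1.00. Among the 7 libraries of higher read quality, D10-2 and D10-3 had 18.6 and 15.2 CPM of ame-miR-6060-5p, against 5.71, 4.69 and 6.64 CPM in the D20 libraries. Against CK, its log2 fold change was 0.70 (standard error 0.30) in D10 and -0.60 (standard error 0.30) in D20.

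Ame-miR-6039-5p, the sixth most abundant member, was lowest in D10. It had 592, 625 and 614 CPM in D10, against 827, 885 and 699 CPM in CK. It had 806, 909 and 905 CPM in D20 and 808, 805 and 927 CPM in D30. The D10 libraries lay close together, below all 9 other libraries. The log2 fold change of ame-miR-6039-5p was -0.40 (standard error 0.14) for D10 against CK, 0.60 (standard error 0.14) for D20 against D10 and 0.48 (standard error 0.14) for D30 against D10, with adjusted p of 0.727, 0.471 and 0.413 in edgeR's quasi-likelihood test. With DESeq2, the adjusted p for D20 against D10 was 0.0146, at a log2 fold change of 0.54, which is short of the required fold.

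Ame-miR-6041-3p, the member with the miR-283 seed, was also lowest in D10. It had 7.63, 3.46 and 8.25 CPM in D10, against 14.4, 13.5 and 13.3 CPM in CK. It had 9.81, 12.5 and 10.6 CPM in D20 and 9.29, 11.8 and 17.0 CPM in D30. The D10 libraries were again below all others. For D10 against CK the log2 fold change of ame-miR-6041-3p was -1.10 (standard error 0.35, unadjusted p = 0.0111, adjusted p = 0.685, edgeR's quasi-likelihood test), and omitting single libraries moved it between -1.32 and -0.81.

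Ame-miR-6040-3p was low in CK and uneven in the treated groups. It had 5.74, 17.7 and 21.4 CPM in D10, against 5.32, 5.62 and 4.63 CPM in CK. It had 7.72, 8.97 and 13.5 CPM in D20 and 6.77, 18.6 and 7.38 CPM in D30. All 9 treated libraries exceeded the 3 CK libraries in CPM, D10-1 only by a small margin. After TMM scaling, the D10 libraries overlapped CK, while those of D20 and D30 stayed above it. The log2 fold change of ame-miR-6040-3p for D10 against CK was 1.53 (standard error 0.53, unadjusted p = 0.0157, adjusted p = 0.685, edgeR's quasi-likelihood test). With edgeR's classic exact test it was called in D20 against CK, at a log2 fold change of 1.00, just beyond the required one, and an adjusted p of 0.0397.

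**Figure D4:**
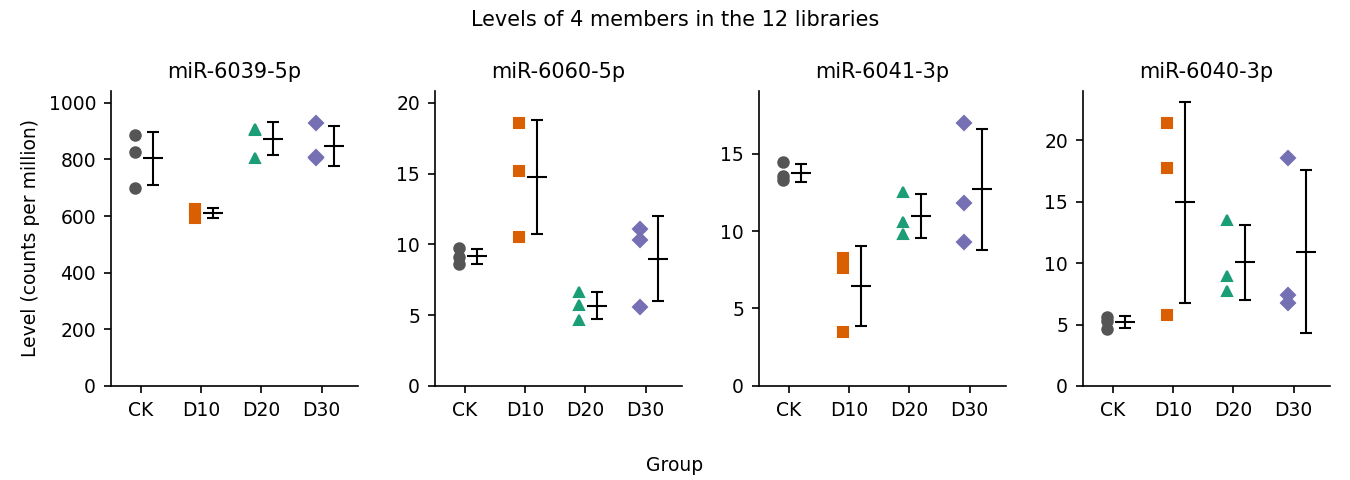
Level in CPM of ame-miR-6039-5p, ame-miR-6060-5p, ame-miR-6041-3p and ame-miR-6040-3p in CK, D10, D20 and D30, with 1 point per library and, beside the points, the mean and SD of the 3 libraries. The D10 points of ame-miR-6039-5p lie below all others, as do those of ame-miR-6041-3p, the D20 points of ame-miR-6060-5p lie below all D10 points, and ame-miR-6040-3p has 3 close CK points and wide spreads in the treated groups.

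The 2 complementary members of the Mir6047 locus both had their lowest mean in D30. Ame-miR-6047a-5p had 2.02, 1.82 and 1.44 CPM in D30, against 2.48, 3.35 and 3.27 CPM in D20 and 2.48, 3.31 and 2.39 CPM in CK. The D30 libraries were below all libraries of the other groups. Its log2 fold change was -0.88 (standard error 0.30, adjusted p = 0.546, edgeR's quasi-likelihood test) for D30 against D20 and -0.64 (standard error 0.30, adjusted p = 0.516) for D30 against CK. Ame-miR-6047b-3p had 9.63, 13.0 and 11.1 CPM in D30, against 11.7, 17.3 and 18.7 CPM in D20, and these groups overlapped. The ratio of ame-miR-6047b-3p to ame-miR-6047a-5p counts, 5.42 over all libraries, lay between 4.53 (D10-3) and 7.70 (D30-3).

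Ame-miR-3783-3p, from the span of LOC408432, had the smallest range of the members counted in all 12 libraries, its highest library being 1.40 times the lowest. It had 61.2, 65.6 and 64.2 CPM in D30, against 84.4, 74.1 and 70.6 CPM in D20 and 76.4, 77.4 and 82.4 CPM in CK. The D30 libraries were below all D20 and CK libraries and overlapped D10 (62.0, 75.7 and 60.2 CPM). Its log2 fold change of -0.30 (standard error 0.14) for D30 against CK and of -0.34 (standard error 0.14) for D30 against D20 had adjusted p of 0.516 and 0.546 in edgeR's quasi-likelihood test. Over the 4 groups together, DESeq2's likelihood ratio test gave ame-miR-3783-3p an adjusted p of 0.0378, ame-miR-6039-5p 0.0237 and ame-miR-6060-5p 0.00422.

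For D30 against D10, the smallest p-values after that of ame-miR-6039-5p were those of ame-miR-6044-5p and ame-miR-6012-3p. Ame-miR-6044-5p had 14.2, 11.0 and 8.95 CPM in D30, against 7.91, 5.85 and 6.37 CPM in D10, without overlap, and a log2 fold change of 0.76 (standard error 0.24). Ame-miR-6012-3p had 259, 162 and 149 CPM in D30, against 110, 150 and 113 CPM in D10, and a log2 fold change of 0.60 (standard error 0.21), which was 0.27 without D30-1. Both had an adjusted p of 0.413 in edgeR's quasi-likelihood test.

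Ame-miR-6001-5p was the only tested member counted in a single group. It had 2, 4 and 9 counts in CK-1, CK-2 and CK-3 and 0 counts in each of the 9 treated libraries. Its mean in CK was 1.59 times the level that 3 counts give in the D10 libraries. The same ratio was 1.50 for D20 and 1.94 for D30. Without CK-3 these ratios were 1.06, 1.00 and 1.30. Tags read once were dropped by the authors, so 0 counts can hide a single read, and the few CK counts carry counting error. The ratios are therefore not lower limits of a fold change. The 3p arm of the same hairpin, ame-miR-6001-3p, was counted in all 12 libraries, at 1.68 to 3.76 CPM.

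Ame-miR-6057-5p was another rare member that CK libraries counted little. It had 12, 7 and 11 counts in D20, against 2, 0 and 5 counts in CK. In edgeR's quasi-likelihood test it had a log2 fold change of 2.22 in D20 over CK (standard error 1.07, adjusted p = 1.00), and its highest library was D10-2 with 27 counts. The log2 fold change of ame-miR-6057-5p was 1.63 without CK-2, 3.05 without CK-3 and 1.47 with a term for higher or lower read quality. None of these values reached the adjusted threshold.

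The same numbers also appear in the tables among miRNAs known from other species, where the suffix x marks the 5p arm and y the 3p arm. There were 64 such entries, 53 of them counted, and 43 were near-identical to a member, meaning an overlap of 18 bases or more with no more than 1 mismatch and with ends within 3 bases of each other. These 43 took 24628 counts, which is 1.54% of the counts on both entries. The largest was miR-3785-y with 10191 counts, beside 551142 on ame-miR-3785-3p, so that the level of the leading members depends little on how reads were split. Of predicted entries, 3 were near-identical to a member, the largest share being 35.6% for m0059-5p beside ame-miR-6049-5p.

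MiR-3743-y, with 1002 counts beside 1421 on ame-miR-3743-3p, took the largest share of the same-numbered entries that were counted in all 12 libraries. At far lower counts, miR-3756-x had 4 beside 4 on ame-miR-3756-5p, and miR-6000-y had 39 beside 26 on ame-miR-6000a-3p. MiR-3743-y differs from ame-miR-3743-3p by C20T and C21T (the member's base first, positions counted from 1 at the 5′ end), and the sequence is printed for these bases.
miR-3743-y: tCGTGACTttcttttcagcttct

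The share of miR-3743-y in the counts on both entries was 74.2%, 45.9% and 34.2% in CK, 50.6%, 34.4% and 23.6% on day 10, 57.5%, 35.9% and 38.9% on day 20, and 57.9%, 42.4% and 20.1% on day 30, in the order of the replicate numbers. The groups overlapped, and in each of the 4 groups the library numbered 1 had the highest share. The Wilson 95% interval was 65.8% to 81.1% in CK-1 and 16.0% to 25.0% in D30-3, on 124 and 303 counts, so that libraries differed beyond counting error. Together the 2 entries had between 10.7 and 20.5 CPM.

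**Figure D5:**
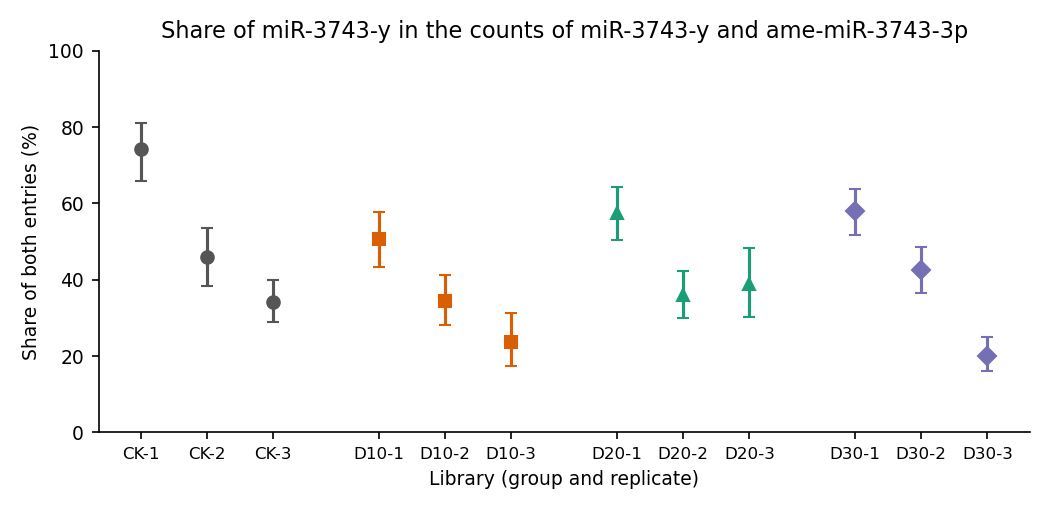
Share of miR-3743-y in the summed counts of miR-3743-y and ame-miR-3743-3p, in percent, in each of the 12 libraries, with Wilson 95% intervals that cover counting error only. The library numbered 1 is the highest of its group in all 4 groups, at 74.2%, 50.6%, 57.5% and 57.9%, and the groups overlap.

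For 2 other members the same-numbered entry differed by 2 bases and stayed rare. MiR-3786-y differs from ame-miR-3786-3p by T3G and T7G, both within the seed, and had 309 counts beside 155936. MiR-6045-x differs from ame-miR-6045-5p by A5G and A15G and had 80 counts beside 1824. MiR-6038-y, with 2539 counts, gave the 3p arm of a number whose only honeybee entry is ame-miR-6038-5p with 15029 counts.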

How the data were processed

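Per the study's methods, the authors kept inserts of at least 18 nt, dropped polyA reads, reads of low quality and tags seen once, and filtered out tags matching other small RNA classes or lying in exons, introns or repeats. Bowtie then placed the remainder on known honeybee miRNAs or on those of other species, and MIREAP predicted further hairpins. They deposited, per library, an unnormalized count of reads per miRNA. In the deposited TPM, the denominator exceeds the summed listed counts and 0 is written as 0.01. Reads shared by related entries were assigned by the authors.

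Groups were taken from the sample labels. R 4.3.3 and its package edgeR 4.0.16 were used on the counts (quasi-likelihood F test, TMM, 1 fit of 12 libraries with a mean per group, at least 10 counts per miRNA, Benjamini-Hochberg within each comparison), the authors' thresholds being kept. Dividing the absolute log2 fold change by the root of F gave its standard error. CPM is per 1000000 counts on listed miRNAs. Depth was 8454313 to 15979901 counts, so 3 counts are 0.188 to 0.355 CPM. DESeq2 1.42.0, edgeR's exact test, other normalizations, filters and covariates, the replicate number as a block and omission of single libraries were alternatives. The test was tried on simulated counts that gave all miRNAs 1 common spread, so the trial does not show how it performs on these counts. Python 3.11.15 and scipy 1.17.1 gave the rest.

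Members and lists were chosen with earlier results of these data known. Named are the 10 most abundant members, those with the 3 smallest p in each comparison, members at 0 or in 1 group, and members related in sequence or hairpin. Others were named after their values were seen. RefSeq's gene table for Amel_HAv3.1 gave all coordinates. Target prediction, qRT-PCR and enrichment were not analysed here.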

Additional observations from a re-analysis of the deposited data

How the results depend on the processing

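The count of called members, 0 in each comparison, was kept under other normalizations, filters, the replicate block, the quality term and summed near-identical entries. The quality term marked each library as of the higher or the lower share of high-quality reads. Over all miRNAs the quality term called 24 of 787 for D30 against D10, 66 for D30 against D20 and 30 over the 4 groups, the replicate block 1 each for D30 against CK, D30 against D10 and the 4 groups, and omission of miRNAs of 1 library 2 of 631 over the 4 groups. DESeq2 called 1 member for D20 against D10 (ame-miR-6060-5p, beside 5 of 787 miRNAs) and 3 over the 4 groups (beside 27), and edgeR's classic exact test 1 for D20 against CK (ame-miR-6040-3p, beside 6) and 1 for D20 against D10 (ame-miR-6060-5p, beside 8). Leaving out 1 library gave 0 to 1 for D20 against D10 and for the 4 groups (ame-miR-6060-5p without D30-3, adjusted p = 0.0104 and 0.0386, edgeR's quasi-likelihood test, beside 11 and 14 of 787) and 0 to 0 elsewhere. The cause was not tested.

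Members at an unadjusted p under 0.05 moved more, and the percentages give all miRNAs tested under the same setting. For D10 against CK (5, beside 6.10%) they were 3 with the replicate block (4.96%), 9 without miRNAs counted almost only in 1 library (9.19%), 3 with the quality term (3.81%), and 2 to 9 with 1 library left out. For D20 against CK (1, beside 4.07%) they were 2 with filterByExpr (8.80%), 2 with DESeq2 (5.34%), 4 with the exact test (8.77%), 0 with the replicate block (3.68%), 3 without miRNAs of 1 library (6.66%), 2 with summed entries (4.02%), and 0 to 4 with 1 library left out. For D30 against CK (1, beside 6.86%) they were 2 with RLE factors (7.24%), 2 with DESeq2 (4.96%), 0 with the replicate block (10.5%), 3 without miRNAs of 1 library (6.34%), 3 with summed entries (8.04%), and 0 to 2 with 1 library left out. For D20 against D10 (3, beside 6.10%) they were 5 with DESeq2 (7.88%) and 2 to 7 with 1 library left out. For D30 against D10 (8, beside 11.2%) they were 0 with the exact test (3.43%) and 4 to 9 with 1 library left out. For D30 against D20 (4, beside 7.62%) they were 0 with the exact test (3.81%), 1 with the replicate block (79 of 787), 1 with the quality term (18.4%), 1 with summed entries (6.96%), and 1 to 4 with 1 library left out.

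The share of members, by group from CK to D30, was 1.06%, 1.04%, 1.04% and 1.04% of the TPM denominator and 2.98%, 2.97%, 2.96% and 2.90% without the 3 most abundant miRNAs, and for D20 1.16% of honeybee counts. With 1 library left out it was 1.13% to 1.18% in CK, 1.10% to 1.16% in D10, 1.12% to 1.14% in D20 and 1.11% to 1.15% in D30.

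Over 16 named fold changes and 336 alternative values, the direction was kept in 336 and 4 passed the adjusted threshold. These fold changes were picked for their small p in the same libraries that the alternatives use. A kept direction was therefore likely in advance and is no independent check. Those of ame-miR-6001-5p were left out, since all its counts were in CK. The replicate numbers do not pair the libraries by label. Over 142 miRNAs, deviations of libraries with equal numbers correlated at -0.44 to 0.36 for number 1, -0.02 to 0.28 for number 2 and -0.50 to 0.02 for number 3. With the replicate block the log2 fold change of ame-miR-6060-5p in D20 against D10 was -1.28 (adjusted p = 0.584).

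Depth limits the 21 members under 1 CPM, where 3 counts are 0.188 to 0.355 CPM.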

Other observations

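The 4 libraries highest in ame-miR-6040-3p were D10-3, D30-2, D10-2 and D20-3, with 21.4, 18.6, 17.7 and 13.5 CPM. Ame-miR-375-3p, known from pancreatic islets in mammals, was highest in the same 4 libraries, with 1162 CPM in D10-3, 779 in D30-2, 1341 in D10-2 and 778 in D20-3. In the other 8 libraries ame-miR-6040-3p had 4.63 to 8.97 CPM and ame-miR-375-3p 154 to 494 CPM. Ame-miR-375-3p was set beside the member after the values of both were seen.

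Ame-miR-6000a-3p, which shares bases 2 to 7 with ame-miR-6040-3p and comes from the same gene span, was rare and had 26 counts in all. It was counted in 5 libraries, highest in D10-2 (1.08 CPM) and next in D30-2 (0.420 CPM) and D10-3 (0.199 CPM), and it had 0 counts in the 3 CK libraries. Ame-miR-6000b-3p, complementary to ame-miR-6000a-5p over 21 bases, was counted in all 12 libraries, at 1.62 CPM (D10-2) to 3.90 CPM (CK-1).

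Several rare members were also highest in D10-2. Ame-miR-3720-5p had 3.70 CPM there, against 0.630 to 3.48 CPM in the other libraries, and ame-miR-6065-3p had 3.85 CPM, against 0.398 to 2.41 CPM. Ame-miR-6061-3p was lowest in D10-2, at 0.924 CPM, against 1.96 to 3.89 CPM elsewhere. Of the 65 honeybee miRNAs numbered under 1000 with at least 1000 counts, D10-2 was highest for 21 and lowest for 15.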
